A study of Mus musculus with 16 samples.

Results

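Cardiac transcription factors were followed here as a group of 10 genes in RNA sequencing of the mouse left ventricle. They were Gata4, Gata6, Nkx2-5, Tbx5, Tbx20, Hand2, Mef2a, Mef2c, Srf and Myocd, chosen by gene symbol for their known roles in heart muscle, and each matched 1 of the 55492 genes in the deposited table. The study examined the loss of the pyruvate kinase isoform PKM2 in the resting and the infarcted heart, using 16 male C57BL/6 mice aged 8 to 12 weeks. Control mice were PKM2fl/fl, with both Pkm alleles carrying loxP sites around exon 10 and no Cre. PKM2-/- mice had lost that exon in every tissue through germline deletion by Cre under the CMV promoter, and the Cre allele was afterwards bred out. Each genotype gave 2 untouched hearts (baseline), 3 hearts at 3 days after sham surgery and 3 hearts at 3 days after myocardial infarction (MI) by ligation of the left anterior descending artery. Every library came from the frozen and pulverized left ventricle of its own mouse, so that infarcted, border and remote muscle were read together, and the deletion was not limited to cardiomyocytes.

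The heart keeps, in adult life, many of the transcription factors that built it. GATA4, GATA6, NKX2-5, TBX5 and TBX20 bind each other and neighbouring sites in the enhancers of contractile, ion channel and natriuretic peptide genes, and HAND2 is a basic helix-loop-helix factor of the developing right ventricle and outflow tract. MEF2 proteins bind A/T-rich boxes in muscle genes and are held in check by class II histone deacetylases. SRF binds the CArG box, and its partner decides the output, since myocardin (Myocd) drives muscle genes, myocardin-related factors (Mrtfa, Mrtfb) drive cytoskeletal genes, and ternary complex factors drive immediate early genes. NKX2-5 and myocardin are found mainly in muscle cells, while others of the group, such as GATA6, HAND2, MEF2C and SRF, are also used by fibroblasts or vascular cells.

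Values are normalized counts, the reads of a gene divided by the size factor of its library. Libraries held 20623769 to 71855101 reads on genes. Of these 15.8% to 46.0% lay on 4 loci listed as a measure of ribosomal RNA (CT010467.1, mt-Rnr1, mt-Rnr2 and Lars2). The share includes mitochondrial rRNA (mt-Rnr1 and mt-Rnr2), and Lars2 is a protein-coding gene. At baseline the share went with genotype, at 17.2% and 22.1% in PKM2fl/fl and 43.8% and 39.6% in PKM2-/- hearts. Each member rested on at least 123 reads in every library. Pkm as a whole gene gave 7779 to 12076 normalized counts in PKM2fl/fl and 10120.2 to 16113 in PKM2-/- hearts, which counts every exon and therefore does not check the loss of exon 10. The tissue was ventricular muscle by its markers. A list of 12 cardiomyocyte markers (Tnnt2, Tnni3, Tnnc1, Myl2, Myl3, Mybpc3, Actn2, Ttn, Myh6, Actc1, Tcap, Myoz2) summed to 1122410 to 1501391 normalized counts over the 10 baseline and sham hearts. The atrial marker Bmp10 was at 0 in 13 of 16 libraries and the summed level of the atrial list did not exceed 1942. After MI the cardiomyocyte sum was 584222, 573349 and 265477 in PKM2fl/fl hearts 1, 2 and 3 and 359807, 287036 and 266244 in the PKM2-/- hearts, so that PKM2fl/fl MI heart 3 stood apart from its group. The 8 fibroblast markers summed to 25496 to 47631 in PKM2fl/fl sham and 163855 to 177858 in PKM2fl/fl MI hearts, and the leukocyte markers to 4718 to 9781 and 18704 to 33687. Among PKM2-/- hearts the fibroblast sum was 29072 to 47335 after sham and 143186 to 197632 after MI, and the leukocyte sum 6659 to 8474 and 26880 to 30983. By the test described below, 5 of the 8 fibroblast markers rose after MI in each genotype, 1 fell and 2 were not called. The sum weighs strongly expressed genes most, with values up to 70348 for Col3a1 and 200.3 for Tcf21. In whole tissue, fewer cells of a type and less RNA per cell cannot be told apart.

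All 10 genes were well expressed in the resting ventricle. Divided by the length of their exons in the GENCODE M39 annotation, baseline levels had a median of 626 normalized counts per kb for Gata4 (range over the 4 hearts 595 to 685), 601 for Myocd (564 to 691) and 540 for Nkx2-5 (513 to 614). Lower levels per kb were seen for Mef2a at 433 (396 to 495), Tbx20 at 331 (322 to 333), Hand2 at 320 (243 to 402) and Srf at 298 (252 to 337). The lowest medians per kb were those of Gata6 at 231 (194 to 252), Mef2c at 221 (198 to 243) and Tbx5 at 186 (184 to 193). Neighbours in this order separated beyond their spread only between Nkx2-5 and Mef2a, Mef2a and Tbx20, Srf and Gata6, and Mef2c and Tbx5. The level of Hand2 varied most among the resting hearts, and those of Tbx20 and Tbx5 varied little.

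**Figure D1:**
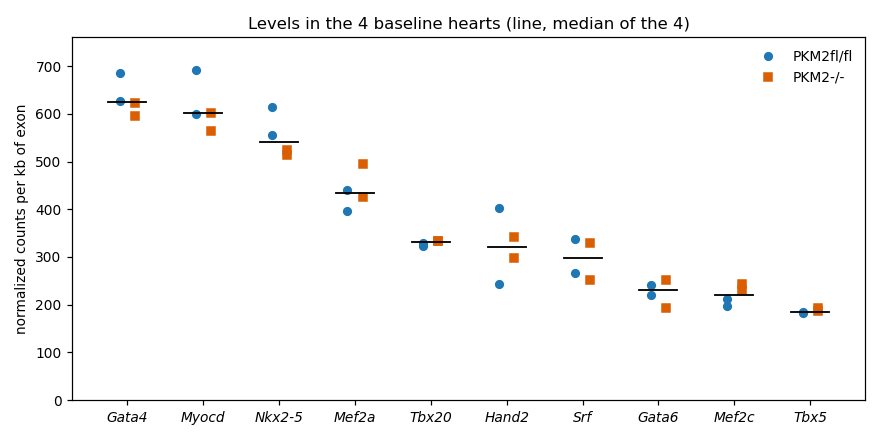
Level of each cardiac transcription factor (normalized counts per kb of exon, linear axis from 0) in the 4 baseline left ventricles, 2 PKM2fl/fl (circles) and 2 PKM2-/- (squares), with a line at the median of the 4. Medians run from 626 for Gata4 to 186 for Tbx5, and the points of Hand2 spread from 243 to 402.

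MI was compared with sham surgery in each genotype to ask how the cardiac factors stood at 3 days of injury. All differences are log2(normalized count + 1), MI minus sham, with a standard error, and adjusted p-values are those of limma, by the Benjamini-Hochberg method over all 20576 genes tested. In PKM2fl/fl hearts 7 of the 10 factors fell (Tbx5, Hand2, Myocd, Nkx2-5, Gata6, Gata4 and Tbx20), 0 rose, and 4 of the 7 fell by at least 2-fold. In PKM2-/- hearts 9 of the 10 fell, all except Mef2a, with 5 past 2-fold. The background was high, since 50.1% of all genes tested were called in PKM2fl/fl hearts and 56.8% in PKM2-/- hearts, with 25.3% and 28.1% called lower and 23.5% and 28.8% called past 2-fold in either direction. Relative to the cardiomyocyte markers, a scale described further on, 7 of the 10 factors rose and 0 fell in each genotype, beside 84.6% and 86.7% of all genes called higher there, so that the share of the factors was not above that of all genes. The median difference of the 10 factors was -0.63 in PKM2fl/fl and -1.02 in PKM2-/- hearts, beside -0.0025 and 0.01 over all genes tested. Every MI heart was below every sham heart for 6 factors in PKM2fl/fl, where 29.0% of all genes behaved so, and for 9 factors in PKM2-/-, where 30.6% did.

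**Figure D2:**
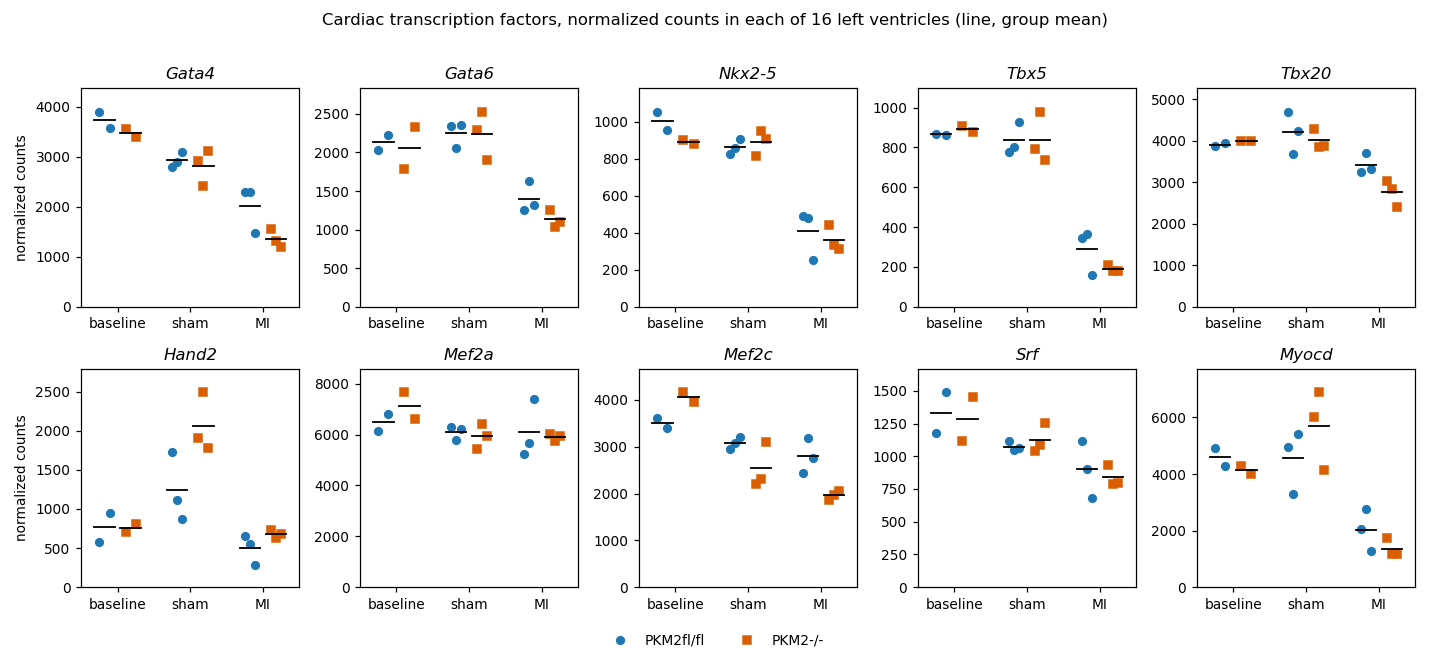
Normalized counts (linear axes from 0) of the 10 factors in each of the 16 hearts, by treatment, with PKM2fl/fl as circles, PKM2-/- as squares and a line at each group mean (2 baseline, 3 sham and 3 MI hearts per genotype). Tbx5 runs from 737 to 979 in sham hearts and from 157 to 363 in MI hearts, whereas Mef2a overlaps between all treatments except in the PKM2-/- baseline hearts, which lie above the other PKM2-/- hearts.

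Tbx5, a T-box factor needed for atrial and ventricular rhythm and for septation, had the largest fall of the 10 in both genotypes. The gene lies on chromosome 5 from 119796514 to 119885220 (GRCm38, forward strand). Its normalized counts were 777, 802 and 930.4 in PKM2fl/fl sham hearts and 346, 363 and 157 after MI. The PKM2-/- hearts had 793, 979 and 737 after sham and 212, 179 and 177 after MI. The MI hearts were thus all below the sham hearts, and PKM2fl/fl MI heart 3 was the lowest of the 6. The difference was -1.62 (standard error 0.23, adjusted p = 4.17e-05) in PKM2fl/fl and -2.13 (0.23, adjusted p = 2.49e-06) in PKM2-/- hearts, which left 34.5% and 22.6% of the sham mean.

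Nkx2-5, the homeobox factor that marks the cardiac lineage, is on chromosome 17 from 26838664 to 26844988 (GRCm38, reverse strand). It gave 825, 856 and 907 normalized counts in PKM2fl/fl sham hearts against 492, 480.1 and 251 after MI. The PKM2-/- values were 817, 951 and 907 after sham and 443, 335 and 312 after MI. No MI heart reached a sham heart in either genotype. The differences were -1.14 (standard error 0.20, adjusted p = 0.000241) and -1.31 (0.20, adjusted p = 5.44e-05). The window of 250 bases before and 50 after its start in the RefSeq table (GRCm38.p6, chr17:26841516-26841815, reverse strand) is printed because GATA factors are among its known regulators. Capitals mark GATA, read on either strand, which is present in 57.9% of the 32851 windows searched.
Nkx2-5: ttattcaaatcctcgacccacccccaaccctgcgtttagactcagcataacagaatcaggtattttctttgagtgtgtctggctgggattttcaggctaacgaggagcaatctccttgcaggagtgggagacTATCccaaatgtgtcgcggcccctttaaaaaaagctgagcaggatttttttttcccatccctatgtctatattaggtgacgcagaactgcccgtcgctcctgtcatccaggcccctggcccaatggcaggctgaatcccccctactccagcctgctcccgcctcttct

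Gata4 and Gata6 encode zinc finger factors of overlapping function, and Gata4 has long been tied to the hypertrophic response. Gata4 (chromosome 14, 63198914 to 63271712, GRCm38, reverse strand) had 2802, 2898 and 3101 normalized counts in PKM2fl/fl sham hearts and 2286, 2295 and 1472 after MI. The PKM2-/- hearts had 2915, 2416 and 3117 after sham and 1562, 1305 and 1187 after MI. It fell by 0.57 (standard error 0.16, adjusted p = 0.00662) in PKM2fl/fl and by 1.06 (0.16, adjusted p = 3.51e-05) in PKM2-/- hearts on the log2 scale. Gata6 ranged from 2056 to 2359 in PKM2fl/fl sham hearts and from 1255 to 1634 after MI, a difference of -0.69 (standard error 0.14, adjusted p = 0.000613). In PKM2-/- hearts Gata6 ranged from 1896 to 2528 after sham and from 1039 to 1259.8 after MI, a difference of -0.98 (0.14, adjusted p = 2.08e-05). Both GATA genes were lower in every MI heart than in any sham heart of the same genotype.

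Tbx20, a T-box factor that maintains the adult myocardium, changed least among the 7 factors that fell in PKM2fl/fl hearts. The gene lies on chromosome 9 from 24720812 to 24774303 (GRCm38, reverse strand). Its range was 3690.2 to 4704 in PKM2fl/fl sham and 3246 to 3715 in PKM2fl/fl MI hearts, which overlap, with a difference of -0.29 (standard error 0.11, adjusted p = 0.0359). That call was lost without PKM2fl/fl sham heart 1 (adjusted p = 0.167), sham heart 3 (0.0823), MI heart 1 (0.103) or MI heart 3 (0.0761). In PKM2-/- hearts the ranges of 3863 to 4289 after sham and 2393 to 3043 after MI did not meet, and the difference was -0.55 (0.11, adjusted p = 0.000543).

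Hand2 lies on chromosome 8 from 57320983 to 57324517 (GRCm38, forward strand) and had the widest spread of the 10 among the resting hearts. Its normalized counts were 1723, 1114 and 871 in PKM2fl/fl sham hearts and 660.1, 552 and 278 after MI. They were 1902, 2490.5 and 1783 in PKM2-/- sham hearts and 736, 628 and 675 after MI. The groups did not overlap in either genotype, with differences of -1.35 (standard error 0.29, adjusted p = 0.00126) and -1.58 (0.29, adjusted p = 0.000261). The result depended on the control, because the sham hearts were themselves high. Against the baseline hearts (575 and 951 in PKM2fl/fl, 707 and 808 in PKM2-/-), the MI difference was -0.66 (adjusted p = 0.103) in PKM2fl/fl and -0.16 (adjusted p = 0.708) in PKM2-/- hearts. Its promoter window (GRCm38.p6, chr8:57320733-57321032, forward strand) is shown with GATA on either strand in capitals, since GATA factors act upstream of Hand2 in the embryo.
Hand2: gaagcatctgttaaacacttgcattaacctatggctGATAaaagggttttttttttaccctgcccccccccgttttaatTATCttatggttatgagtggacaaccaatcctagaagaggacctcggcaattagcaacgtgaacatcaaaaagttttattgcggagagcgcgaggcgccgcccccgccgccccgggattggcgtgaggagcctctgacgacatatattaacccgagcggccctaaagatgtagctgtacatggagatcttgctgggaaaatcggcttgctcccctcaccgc

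Of the MEF2 factors, Mef2a (chromosome 7, 67231163 to 67376456, GRCm38, reverse strand) was the single member called in neither genotype. It ranged from 5799 to 6299 normalized counts in PKM2fl/fl sham hearts and from 5243 to 7408 after MI, and from 5432 to 6414 and 5747 to 6029 in PKM2-/- hearts. The differences were -0.01 and -0.00, each with a 95% interval of 0.26 to either side (adjusted p = 0.936 and 0.993). Mef2c (chromosome 13, 83504017 to 83667079, GRCm38, forward strand), which is needed for the looping heart tube, had 2954, 3086 and 3210.0 normalized counts in PKM2fl/fl sham hearts and 2439, 3179 and 2760.1 after MI, which overlapped (difference -0.15, standard error 0.12, adjusted p = 0.331). In PKM2-/- hearts it had 2199, 2314 and 3107 after sham and 1855, 1975 and 2053 after MI. All 3 MI hearts were lower there, with a difference of -0.36 (0.12, adjusted p = 0.0219) that was no longer called without PKM2-/- sham heart 3 (adjusted p = 0.130) or PKM2-/- MI heart 1 (0.0699). The Mef2a window (GRCm38.p6, chr7:67372809-67373108, reverse strand) is printed because it holds a MEF2 box of its own, in capitals, beginning at -2 relative to the start, and 3.19% of all windows hold such a box.
Mef2a: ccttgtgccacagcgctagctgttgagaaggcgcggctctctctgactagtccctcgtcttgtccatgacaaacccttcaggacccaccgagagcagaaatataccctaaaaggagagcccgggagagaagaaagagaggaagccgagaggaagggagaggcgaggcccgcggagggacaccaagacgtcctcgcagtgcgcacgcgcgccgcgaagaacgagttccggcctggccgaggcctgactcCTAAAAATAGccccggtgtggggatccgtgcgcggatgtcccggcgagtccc

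Srf and its muscle coactivator Myocd differed in how far they moved. Myocd lies on chromosome 11 from 65173608 to 65269989 (GRCm38, reverse strand). It had 4943, 3304 and 5428 normalized counts in PKM2fl/fl sham hearts and 2068, 2751 and 1281 after MI. The PKM2-/- hearts had 6032, 6890.3 and 4134 after sham and 1721, 1175 and 1159.9 after MI. Every MI heart was below every sham heart, with differences of -1.20 (standard error 0.26, adjusted p = 0.00133) and -2.06 (0.26, adjusted p = 9.21e-06), so that 44.6% and 23.8% of the sham mean remained. Srf (chromosome 17, 46546838 to 46558267, GRCm38, reverse strand) ranged from 1046 to 1114 in PKM2fl/fl sham hearts and from 683 to 1115 after MI, a difference of -0.28 (standard error 0.16, adjusted p = 0.152) that became -0.45 (adjusted p = 0.0248) without PKM2fl/fl MI heart 1. Srf in PKM2-/- hearts ranged from 1042 to 1250.3 after sham and from 785 to 936 after MI, and the difference of -0.42 (0.16, adjusted p = 0.0322) passed. That call for Srf did not hold without PKM2-/- sham heart 2 (adjusted p = 0.0529), sham heart 3 (0.116), MI heart 2 (0.0978) or MI heart 3 (0.0903).

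The promoter of Srf is known for autoregulation by its own protein, and its window (GRCm38.p6, chr17:46556113-46556412, reverse strand) is printed for that reason. Capitals mark 2 CArG boxes, which begin at -82 and -62 relative to the start. A CArG box was found in 1.63% of the 32851 windows, a set that leaves out the chromosome of Gata6.
Srf: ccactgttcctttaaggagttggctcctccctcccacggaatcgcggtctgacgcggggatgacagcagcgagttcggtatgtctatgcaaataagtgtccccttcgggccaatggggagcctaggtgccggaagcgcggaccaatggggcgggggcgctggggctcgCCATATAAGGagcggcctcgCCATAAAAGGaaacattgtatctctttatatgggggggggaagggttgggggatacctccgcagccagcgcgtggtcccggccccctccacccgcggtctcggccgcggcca
Windows were matched for 6 of the 10 factors, of which Tbx20 held 0 matches to the 7 motifs searched. Those were the CArG and MEF2 boxes, GATA, the T-box motif GGTGTGA (3.98% of windows), the NKX2-5 motif AAGTG (46.4%), the E-box CANNTG (72.3%) and TATAAA (13.6%), on both strands. AAGTG lay within an E-box, CAAGTG on either strand, in the Hand2 window and in window 1 of Mef2c. In window 3 of Mef2c, at another start, AAGTG lay at -58 and the E-box apart from it at -245. A match describes letters in the window and is not a measured binding site.

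The factors were next expressed relative to heart muscle, by subtracting the mean log2 level of the 12 cardiomyocyte markers in each library, because those markers fell in the same hearts. Of the 12 markers, 11 fell in PKM2fl/fl and 12 in PKM2-/- hearts, with median differences of -1.62 and -1.91. On this scale the median of all genes tested moved to 1.66 and 1.93, and values are read against that shift. Gata4, Gata6, Nkx2-5, Tbx20, Mef2a, Mef2c and Srf rose relative to the markers in both genotypes, by 0.51 (Nkx2-5) to 1.64 (Mef2a) in PKM2fl/fl and by 0.61 (Nkx2-5) to 1.92 (Mef2a) in PKM2-/- hearts. Tbx5 differed from the markers by 0.04 (adjusted p = 0.881) and -0.21 (adjusted p = 0.386), Hand2 by 0.31 (adjusted p = 0.315) and 0.33 (adjusted p = 0.281), and Myocd by 0.46 (adjusted p = 0.0978) and -0.15 (adjusted p = 0.585). Subtracting the same value from every gene of a library leaves each factor's place beside the median gene as it was before. All 10 factors lay below that median in both genotypes. Mef2a lay close to it, well within its 95% interval of 0.26 to either side on the authors' normalized counts. Whether the lower normalized counts reflect fewer cardiomyocytes or less message in each was not tested.

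**Figure D3:**
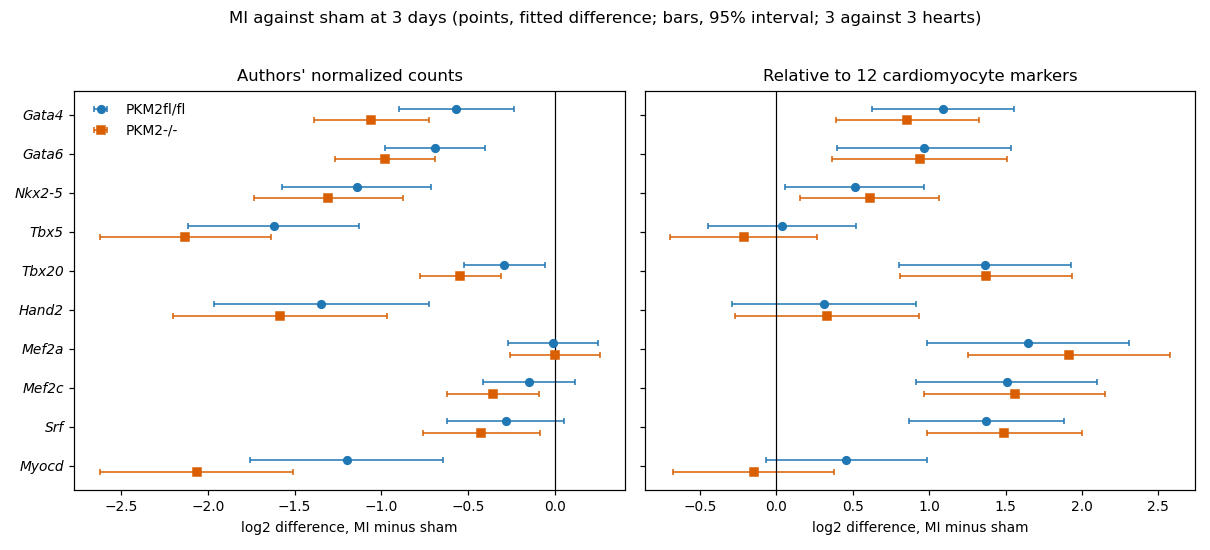
MI minus sham difference (log2 scale) of each factor in PKM2fl/fl (circles) and PKM2-/- (squares) hearts with 95% intervals, 3 MI against 3 sham hearts each, on the authors' normalized counts (left) and relative to the 12 cardiomyocyte markers (right). On the left Tbx5 lies at -1.62 and -2.13 and Mef2a at -0.01 and -0.00. On the right most points lie above 0, with Mef2a at 1.64 and 1.92, while Tbx5 lies near 0 at 0.04 and -0.21.

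Loss of PKM2 was compared with its control within each treatment. At baseline 0 of 10 factors were called, beside 0.00972% of all genes tested, and also 0 at an unadjusted p under 0.05. Differences there, PKM2-/- minus PKM2fl/fl, ran from -0.17 (Nkx2-5) to 0.21 (Mef2c), with 95% intervals of 0.28 (Tbx20) to 0.76 (Hand2) to either side. The rRNA share of the baseline libraries also differed with genotype, as given above. After sham surgery 0 of 10 were called, again beside 0.00972%, and 2 had an unadjusted p under 0.05, as did 9.95% of all genes. These were Hand2, at 0.78 (standard error 0.29, adjusted p = 0.368) with all 3 PKM2-/- hearts above the PKM2fl/fl hearts (as for 8.27% of all genes), and Mef2c, at -0.30 (0.12, adjusted p = 0.437) with overlapping hearts. DESeq2 and edgeR on the recovered reads also called 0 in both treatments.

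After MI 0 of the 10 factors were called between the genotypes, beside 0.967% of all genes, and 5 had an unadjusted p under 0.05, beside 17% of all genes. The fitted difference was below 0 for 9 of the 10, with a median of -0.31, and above 0 for Hand2 (0.54, standard error 0.29, adjusted p = 0.363). The 12 cardiomyocyte markers had a median of -0.34 in the same comparison, so this median does not set the factors apart from them. The share of all genes below 0 is not given here. The lowest adjusted p-values were those of Mef2c (-0.50, standard error 0.12, adjusted p = 0.0625) and Gata4 (-0.56, standard error 0.16, adjusted p = 0.0898). For Mef2c and Tbx20 every PKM2-/- MI heart was below every PKM2fl/fl MI heart, as for 8.26% of all genes, whereas the lowest PKM2fl/fl heart fell among the PKM2-/- hearts for Gata4. These calls turned on the test and on PKM2fl/fl MI heart 3. DESeq2 called Gata4 (adjusted p = 0.0164) and Mef2c (0.00713), beside 5.64% of all genes. In data simulated for MI against sham in PKM2fl/fl hearts, DESeq2 gave more false calls than limma (38 beside 9). DESeq2 also recovered more of the changed genes there (93% beside 86%). The comparison of the genotypes after MI was not simulated. With a weight for each library limma called 5 factors and 9.91% of all genes, and without PKM2fl/fl MI heart 3 it called Gata4, Nkx2-5, Tbx5, Mef2c and Myocd and 11% of all genes. That heart also had the lowest cardiomyocyte sum of its group, and without it the PKM2fl/fl sums were 584222 and 573349 beside 266244 to 359807 in PKM2-/-. Relative to the cardiomyocyte markers, differences between the genotypes after MI ran from -0.19 (Gata4) to 0.91 (Hand2), and 0 were called.

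The difference in the MI response between the genotypes was called for 0 of the 10 factors and 0% of all genes (limma, 2 factors and 8.28% of all genes at an unadjusted p under 0.05), and edgeR and DESeq2 also called 0 of the 10. The interaction values of those 2, the change in PKM2-/- minus that in PKM2fl/fl hearts, were -0.86 for Myocd (standard error 0.37, adjusted p = 0.572) and -0.49 for Gata4 (0.22, adjusted p = 0.580), and neither passed. Without PKM2fl/fl MI heart 3 the interaction was called for Gata4 (-0.70, adjusted p = 0.0360) and Tbx5 (-0.90, adjusted p = 0.0157), beside 2.35% of all genes. In this respect 9 calls in PKM2-/- hearts beside 7 in PKM2fl/fl hearts do not show that Mef2c and Srf responded differently, since their interaction values were -0.21 (adjusted p = 0.773) and -0.14 (adjusted p = 0.896).

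Sham surgery alone moved 2 of the 10 factors when compared with baseline over both genotypes, beside 6.54% of all genes. Hand2 rose by 1.06 (standard error 0.23, adjusted p = 0.0122) and Mef2c fell by 0.44 (0.10, adjusted p = 0.0137). Baseline Mef2c was 3621 and 3397 in PKM2fl/fl and 4165 and 3949 in PKM2-/- hearts, above every sham heart of the same genotype. Baseline Hand2 lay below all PKM2-/- sham hearts but overlapped the PKM2fl/fl sham hearts. Within genotypes, Hand2 differed by 0.68 (adjusted p = 0.573) in PKM2fl/fl and rose by 1.43 (adjusted p = 0.0197) in PKM2-/- hearts. Mef2c differed by -0.19 (adjusted p = 0.830) and fell by 0.69 (adjusted p = 0.0102). The test of the difference between genotypes passed for neither (Hand2 0.75, adjusted p = 0.905, and Mef2c -0.51, adjusted p = 0.676). Neither overall call held without PKM2fl/fl baseline heart 1 (Hand2 adjusted p = 0.0781, Mef2c 0.0668) or PKM2-/- baseline heart 1 (0.0503 and 0.0553). Relative to the cardiomyocyte markers Hand2 still rose after sham surgery (1.10, adjusted p = 0.0169), whereas Mef2c was not called (-0.40, adjusted p = 0.776), beside 1.04% of all genes called. The call of Mef2c was also lost with scaling to total counts (-0.36, adjusted p = 0.828) and to totals without rRNA and mitochondrial genes (-0.45, adjusted p = 0.0507).

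Markers of other cell types differed between the same sham and baseline hearts. Of the fibroblast markers 4 of 8 rose, of the leukocyte markers 7 of 8 and of the atrial markers 2 of 4 measured, and 0 of these fell. The fibroblast sum was 17526 to 22010 in the 4 baseline and 25496 to 47631 in the 6 sham hearts, and the leukocyte sum 3302 to 4541 and 4718 to 9781. Among PKM2-/- sham hearts the highest Hand2 value (2490.5) was in the heart with the lowest fibroblast sum (29072). The PKM2fl/fl sham hearts went the other way, with the lowest Hand2 value (871) in the heart with the lowest fibroblast sum (25496). Of the endothelial markers 2 of 6 fell (median -0.29), as did 2 of 6 smooth muscle and pericyte markers (median -0.41), and 0 of either rose. The endothelial sum was 18449 to 20849 at baseline and 15234 to 18113 after sham, and the smooth muscle and pericyte sum 16345 to 19478 and 13421 to 18938. The part of these cell types in the values of Hand2 and Mef2c was not tested.

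Relatives and partners of the factors also moved in both directions after MI. Of 27 measured genes of 30 listed, 4 rose and 12 fell in PKM2fl/fl hearts (median -0.31), and 3 rose and 16 fell in PKM2-/- hearts (median -0.51). Over all genes tested, 50.1% and 56.8% were called in either direction, and 25.3% and 28.1% were called lower. Relative to the cardiomyocyte markers 21 and 22 of the 27 rose and 0 fell, where 84.6% and 86.7% of all genes rose. Hopx, a homeodomain cofactor that restrains SRF, fell (-1.90 in PKM2fl/fl and -1.98 in PKM2-/- hearts, adjusted p = 4.34e-06 and 1.79e-06). Tbx18, a T-box gene of the epicardium and mural cells, rose by 1.50 and 1.23 (adjusted p = 7.95e-06 and 2.87e-05). Mrtfa, the coactivator that carries actin signals to SRF, rose by 1.05 and 0.80, from 939 to 992 in PKM2fl/fl sham to 1745 to 2152 in PKM2fl/fl MI hearts. Mrtfa thus stood in contrast to Myocd, which fell in the same hearts. Mrtfb, the other myocardin-related factor, was called in neither genotype (-0.09, adjusted p = 0.421, and 0.18, adjusted p = 0.106), and is named with its values in view. The fibroblast and leukocyte sums rose in these hearts, and their part in the contrast was not tested. Between the genotypes 0 of the 27 were called in any treatment.

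The known target genes were counted by class, beside 50.1% and 56.8% of all genes called in either direction on the authors' normalized counts. Of 16 cardiomyocyte targets, 3 rose and 11 fell in PKM2fl/fl and 3 rose and 10 fell in PKM2-/- hearts, with a median of -1.07 in each. Relative to the cardiomyocyte markers 8 rose and 1 fell, and 9 rose and 2 fell, where 84.6% and 86.7% of all genes rose. Those that rose in both genotypes were Nppa and Nppb, which encode the natriuretic peptides, and Gja5, a connexin of the conduction system and endothelium. Among those that fell was Atp2a2, the calcium pump of the sarcoplasmic reticulum, with differences of -1.80 and -2.54 (adjusted p = 0.000325 and 1.11e-05). Pln, its inhibitor phospholamban, fell too (-1.67 and -2.21), as did Ryr2, the calcium release channel (-1.37 and -1.92), and Corin, the protease that activates natriuretic peptides (-1.45 and -1.94). Of 15 smooth muscle and cytoskeletal targets of SRF, 12 rose and 2 fell in PKM2fl/fl (median 1.68), and 11 rose and 3 fell in PKM2-/- hearts (median 0.92). Actb, cytoplasmic actin, rose by 2.46 and 2.24, the filamin gene Flna by 1.74 and 1.73, and Tpm4, a cytoskeletal tropomyosin, by 1.80 and 1.82. Those that fell in both genotypes were Tpm1, a sarcomeric and smooth muscle tropomyosin (-1.30 and -1.22), and Smtn, which encodes smoothelin (-0.54 and -0.56). Myh11, smooth muscle myosin, differed by -0.60 (adjusted p = 0.0514) in PKM2fl/fl and fell by 1.34 (adjusted p = 0.000222) in PKM2-/- hearts. Cnn1, smooth muscle calponin, rose by 1.33 (adjusted p = 0.00312) in PKM2fl/fl hearts and differed by 0.08 (adjusted p = 0.855) in PKM2-/- hearts. The choice of Tpm1, Smtn, Myh11 and Cnn1 was made with their values in view, and the difference in response between the genotypes passed for 0 of the 15. The fibroblast and leukocyte sums given above rose in the same hearts, and their part in these target genes was not tested. Of 7 measured immediate early targets of 8 listed, 4 rose and 0 fell in PKM2fl/fl hearts (Egr3, Junb, Fos and Egr1), and 3 rose and 1, Srf itself, fell in PKM2-/- hearts. The share called in this class was near that of all genes. Fos ranged from 119.7 to 260.4 in PKM2-/- sham hearts and from 40.7 to 118.1 in PKM2fl/fl sham hearts, and 0 immediate early targets were called between the genotypes. In both classes of SRF targets more genes rose than fell with edgeR and with both scalings to total counts. Relative to the cardiomyocyte markers 14 and 15 of the 15 and 7 and 6 of the 7 rose. Because 84.6% and 86.7% of all genes rose on that scale, it does not set these targets apart.

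Each factor was matched to the genes whose log2 values, centred on their own mean, followed it most closely over the 16 libraries, among 13469 other genes with a mean of at least 100. The distance is the root-mean-square difference, so that smaller means more alike. Tbx5 was followed most closely by Fitm2 (0.084), Tmem143 (0.108) and Igsf8 (0.110), and Nkx2-5 by Kif1c (0.085), Cluh (0.087) and Dlst (0.097). For Gata4 they were Fam189a2 (0.113), Efr3b (0.125) and Cers4 (0.133), for Gata6 Herc3 (0.113), Mast2 (0.117) and Marchf6 (0.118), and for Tbx20 Kat2b (0.089), Rab3gap1 (0.091) and Zfp644 (0.093). Mef2c came closest to Zfp715 (0.146), Zkscan8 (0.149) and Ric8b (0.152), Srf to Gid8 (0.111), and Myocd to Map7 (0.166), Mapk10 (0.193) and Fgf1 (0.195). Within the 10 factors the closest pair was Gata6 and Tbx20 (0.233), and Tbx5 was nearest to Myocd (0.290).

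The closest gene of all to any factor was Lysmd4 for Mef2a (0.051), followed by Pias2 (0.072) and Mipol1 (0.075). Lysmd4 lies on the opposite strand and shares 1081 exon bases with Mef2a, 6.97% of its exon length, in the GENCODE M39 annotation. It had 4155 to 6554 normalized counts over the 16 hearts, and the highest PKM2fl/fl MI value was in the same heart for both genes (7408 for Mef2a, 5769 for Lysmd4). For Hand2 the closest gene was the antisense long non-coding RNA Hand2os1 (0.213), whose exons share 468 bases with those of Hand2 (19.8%), ahead of Proser2 (0.316) and C7 (0.332). Hand2os1 had 4688, 3065 and 2951 normalized counts in PKM2fl/fl sham hearts and 5259, 6779 and 3932 in PKM2-/- sham hearts. After MI it had 1499, 1685 and 954 in PKM2fl/fl and 1908, 1442 and 1506 in PKM2-/- hearts, so that its highest group mean was in PKM2-/- sham and its lowest in PKM2fl/fl MI hearts, as for Hand2. The library kit did not keep the strand of the RNA, and in the shared exons reads from a gene and from its antisense partner cannot be told apart. Gata6 likewise shares 1154 exon bases (12.5%) with Gata6os, which had 1549 to 1927 normalized counts in the 6 sham hearts and 345 to 816 in the 6 MI hearts.

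**Figure D4:**
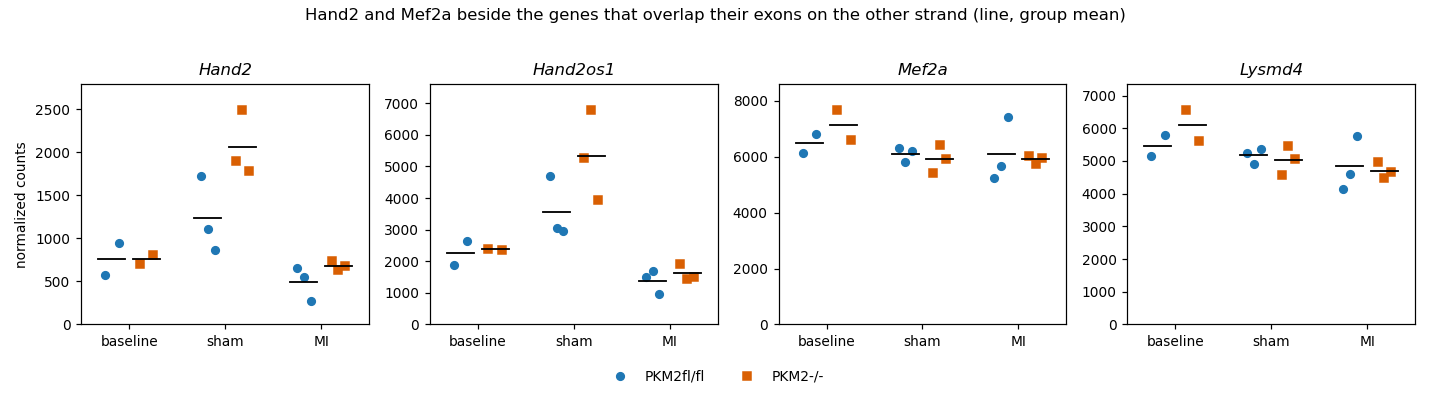
Normalized counts (linear axes from 0) of Hand2 and Mef2a in each of the 16 hearts beside Hand2os1 and Lysmd4, which overlap their exons on the other strand, with PKM2fl/fl as circles, PKM2-/- as squares and lines at group means. Hand2 and Hand2os1 are both highest in sham hearts (871 to 2490.5 and 2951 to 6779), and the highest PKM2fl/fl MI heart is the same for Mef2a and Lysmd4 (7408 and 5769).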

How the data were processed

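RNA was taken from 16 left ventricles, depleted of rRNA and sequenced as paired ends with a kit that does not keep strand. PRINSEQ trimming, HISAT2 alignment to mm10, featureCounts counting and DESeq2 normalization were done by the authors. Their multi-mapping settings are not given in the sources used here. The deposited signal per gene and library is the count divided by the DESeq2 size factor, and the table also holds the authors' mean, log2 fold change, Wald statistic and p-values of the baseline comparison, which were not used. The 10 factors, the gene lists and the tests were chosen with earlier results of these data known, and at most 3 or 4 members of each list with the smallest p in either MI comparison are named.

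All genes averaging 10 or more over the libraries were fitted with limma-trend (limma 3.58.1, R 4.3.3) on log2(value + 1), all 16 libraries in 6 groups, and called at a Benjamini-Hochberg adjusted p under 0.05. Groups were read from the sample labels. In every library 100.0% of values were whole reads after division by a step, within a tolerance of 0.1 read, so edgeR 4.0.16 (TMM) and DESeq2 1.42.0 were run on the recovered reads and called 10741 and 10831 genes for MI against sham in PKM2fl/fl hearts. Depths of 20623769 to 71855101 reads left no factor under 123 reads. Simulated data for that comparison, with 200 changed genes among 20696, gave 93% of 3-fold and 79% of 2-fold changes and 9 false calls with limma. False calls numbered 10 with edgeR and 38 with DESeq2. The simulation changed far fewer genes than the 10299 that limma called in the data. Replicate numbers were checked for pairing: of 36 pairs of libraries sharing a number, 1 had deviations correlating over 0.1 (range -0.20 to 0.13), and each mouse gave 1 library, so the numbers pair no animals. Alternatives were other scalings, filters, pseudocounts, tests and groups, array weights and each library left out, and, chosen after seeing the data, baseline hearts as the control. Positions and promoter windows are from RefSeq (GRCm38.p6), exon lengths from GENCODE M39. Part of the matching by pattern is not reported here.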

Additional observations from a re-analysis of the deposited data

How the results depend on the processing

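With edgeR, a pseudocount of 0.1 and the replicate number as a block, every one of the 70 results for a single factor kept its side of the threshold. Direction changed for 2 values that were not called, Hand2 between the genotypes at baseline with edgeR (0.03 to -0.02) and Tbx5 for sham against baseline with the replicate block (-0.08 to 0.03). The replicate block gave 7, 9, 0, 0, 0, 0 and 2 calls for the 7 comparisons in the order of the text. Same-numbered libraries did not deviate together, and 3 of 16 correlated best with their own number. Leaving out each library in turn gave 6 to 7 factors called for MI against sham in PKM2fl/fl hearts, 7 to 9 in PKM2-/- hearts, 0 to 5 between the genotypes after MI, 0 to 2 for the interaction, 0 to 3 for sham against baseline and 0 for the genotypes at baseline and after sham. The genotypes after MI gave 2 calls with DESeq2 and 5 with array weights, 5 and 2 interactions came from the fit without PKM2fl/fl MI heart 3, and 1 call after MI (Mef2c) from that without PKM2-/- sham heart 3. Over all genes DESeq2 called 1033 between the genotypes after MI and 267 after sham, where limma called 199 and 2. With baseline hearts as the control, 3 calls for MI were lost over the 2 genotypes, Hand2 in both among them, and 1 was gained.

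Scaling to total counts shifted the median of all genes by -0.18 and 0.52 in the MI comparisons and by -0.59 between the genotypes at baseline. It gave 5 calls in PKM2fl/fl and 4 in PKM2-/- hearts, where Mef2c moved to 0.16 and Srf to 0.088, and 1 call for sham against baseline, as did totals without rRNA and mitochondrial genes and the marker scale, with Mef2c the call lost. Totals without rRNA and mitochondrial genes gave 6 calls in each MI comparison, beside 7 and 9. With scaling to total counts 2 called results changed direction, those of Mef2c and Srf in PKM2-/- hearts. The shares of all genes called with these scalings are not given here, so the counts of factors are not set against a background. Relative to the cardiomyocyte markers both MI comparisons gave 7 calls, all higher. In PKM2fl/fl hearts the differences were then 1.09 for Gata4, 0.97 for Gata6, 0.51 for Nkx2-5, 0.037 for Tbx5, 1.37 for Tbx20, 1.64 for Mef2a, 1.51 for Mef2c, 0.31 for Hand2, 1.37 for Srf and 0.46 for Myocd. In PKM2-/- hearts they were 0.86 for Gata4, 0.94 for Gata6, 0.61 for Nkx2-5, 1.37 for Tbx20, 1.92 for Mef2a, 1.56 for Mef2c, 0.33 for Hand2 and 1.49 for Srf. The turn follows from the construction of that scale, since the markers fell more than these factors. The least-read factor rested on 123 reads in a library, and groups held 2 or 3 hearts.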

Other observations

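Further members of the list of relatives and partners, chosen here after their values were seen, are given as log2 differences of MI against sham in PKM2fl/fl and PKM2-/- hearts. The Iroquois genes, which pattern the ventricular wall, fell, with -1.56 and -1.58 for Irx3, -1.59 and -1.94 for Irx4 and -1.01 and -1.83 for Irx5. Prdm16, a factor of compact ventricular myocardium, fell (-1.28 and -1.87), as did Tbx3, a T-box repressor of the conduction system (-0.92 and -1.30). Mef2d fell (-0.54 and -0.72), and of the class II histone deacetylases that bind MEF2 proteins Hdac5 (-0.72 and -0.94) and Hdac4 (-0.41 and -0.65) fell, while Hdac9 differed by -0.03 (adjusted p = 0.882) and 0.17 (adjusted p = 0.302). Relative to the cardiomyocyte markers 0 of the 27 measured genes of that list fell in either genotype. In the same list Zfpm2, a GATA cofactor, differed by -0.07 (adjusted p = 0.725) in PKM2fl/fl and fell by 0.47 (adjusted p = 0.0122) in PKM2-/- hearts, and the difference between the genotypes passed for 0 of the 27.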
